A study of Mus musculus with 4 samples.

Results

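The genes described are the amino acid and peptide transporters of the absorptive epithelium, 10 genes chosen by name out of 18193 genes with a probe set on the array. They were Slc7a9, Slc3a1, Slc6a20a, Slc6a19, Slc15a1, Slc6a14 and Slc1a1 of the luminal membrane, and Slc7a7, Slc7a8 and Slc3a2 of the basolateral membrane, and every probe set with the symbol of 1 of them was taken, 15 in all. Levels came from 4 Affymetrix mouse expression arrays, 1 for each genotype, of epithelial cells shaken from the colon of C57BL/6 mice. All 4 groups had been given azoxymethane, a carcinogen, at 10 mg/kg, followed after 5 days by 3.5% dextran sulfate sodium in the drinking water for 5 days, which injures the colonic epithelium, and cells were taken on day 12 from mice put into the model at 6 to 8 weeks of age.

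The DKO-labelled array stands for deletion of both Bmi1 and Mel18 in intestinal epithelial cells (Bmi1ΔIEC Mel18ΔIEC). The Bmi1ΔIEC-labelled and Mel18ΔIEC-labelled arrays stand for deletion of 1 of the genes, and the WT array carries neither deletion. Bmi1 and Mel18 (gene symbol Pcgf2) are related subunits of Polycomb repressive complex 1, which keeps developmental genes silent. The labels give neither the transgene that drove the deletion nor the number of mice behind an array. Each genotype was measured once, so no difference below has a p-value, a standard error or a replicate check.

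Dietary protein is absorbed as small peptides and free amino acids. Transporters of the brush border carry both into the enterocyte, and basolateral transporters pass amino acids on to the blood. Some transporters work as pairs of a heavy chain, which brings the complex to the membrane, and a light chain, which carries the substrate. Most of this absorption takes place in the small intestine, and the colon expresses many of the transporters at lower levels, with Slc6a14 as a transporter known from the distal gut.

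Values are RMA intensities per probe set, as deposited by the authors, in arbitrary units. The brightness of different probe sets cannot be set against each other, so levels are compared between arrays within a probe set. The floor is the median of all values, 33.4 units, and a gene is called higher or lower between a pair of arrays, by what is termed the size rule, if its brightest probe set differed at least 2-fold (a log2 difference of 1 or more in size) with the higher value at or over the floor. Of the 10 genes, 9 reached the floor, each of them on all 4 arrays. Slc6a19 stayed under it on every array.

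The targeted genes were read first. Bmi1 read 432 units on the DKO-labelled, 334 on the Bmi1ΔIEC-labelled, 160 on the Mel18ΔIEC-labelled and 116 on the WT array with its brighter probe set, so the arrays labelled for its loss were the brighter ones. Pcgf2 read 32.0, 33.4, 39.8 and 30.2 units in the same order of arrays, around the floor. Where the deletions lie relative to the probes is not given, and the arrays are therefore called by their labels. All 10 epithelial markers (such as Epcam and Krt8) reached the floor, with a summed intensity of 96271, 79481, 83179 and 91879 units in that order. Markers of other cells were also present. The 11 leukocyte markers summed to 5858, 2862, 2486 and 5677 units, the 10 fibroblast and smooth muscle markers to 8984, 3854, 6990 and 7191 units, and the 5 endothelial markers to 176, 175, 144 and 163 units, with Pecam1 and Emcn under the floor everywhere. Such sums are set mostly by the brightest probe sets. Of the 10 leukocyte markers tested between the Bmi1ΔIEC-labelled and WT arrays, 8 lay lower on the Bmi1ΔIEC-labelled array. By the size rule 5 were lower, against 2.86% of all genes tested. The 2 that lay higher there, Cd14 and Cd3g, did not pass it, at 0.37 and 0.14 on the log2 scale. On the Mel18ΔIEC-labelled array all 10 lay below WT, 4 of them by the rule, against 2.5% of all genes. On the DKO-labelled array 6 lay above WT, 1 of them by the rule, and 4 below. In a preparation of mixed cells, fewer cells of a type and less RNA per cell cannot be told apart.

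Promoter windows from RefSeq (GRCm38.p6), 250 bases before to 50 after an annotated start, were found for all 10 genes, 15 windows in all, since Slc7a9 has 2 annotated starts there and Slc7a7 has 5. Shown are those of Slc7a9 and its heavy-chain partner Slc3a1, of Slc6a20a, which like Slc7a9 was higher than WT on all 3 knockout-labelled arrays, and of Slc6a14, the gene that was lower on the DKO-labelled array. Sequences run 5′ to 3′ on the gene's strand. Capitals mark matches, on either strand, to short motifs of factors known in intestinal epithelium or inflammation. The HNF4 motif was searched as CAAAGT. For the CDX factors the letters were ATAAA, for the GATA factors they were AGATAA, and for the STAT factors they were TTCNNNGAA.
Slc7a9, chr7:35448842-35449141, plus strand: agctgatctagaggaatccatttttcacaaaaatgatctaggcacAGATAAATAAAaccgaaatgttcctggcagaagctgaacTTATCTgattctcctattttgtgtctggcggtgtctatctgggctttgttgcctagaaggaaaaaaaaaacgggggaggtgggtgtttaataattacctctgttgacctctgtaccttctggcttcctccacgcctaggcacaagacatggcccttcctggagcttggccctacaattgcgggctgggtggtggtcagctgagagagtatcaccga
Slc3a1, chr17:85028097-85028396, plus strand: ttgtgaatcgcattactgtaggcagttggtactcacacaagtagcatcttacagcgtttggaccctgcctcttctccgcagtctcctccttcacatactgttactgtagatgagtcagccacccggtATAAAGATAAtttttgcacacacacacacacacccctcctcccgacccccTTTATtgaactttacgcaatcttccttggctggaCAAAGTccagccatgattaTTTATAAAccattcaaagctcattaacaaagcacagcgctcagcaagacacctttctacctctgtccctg
Slc6a20a, chr9:123678783-123679082, minus strand: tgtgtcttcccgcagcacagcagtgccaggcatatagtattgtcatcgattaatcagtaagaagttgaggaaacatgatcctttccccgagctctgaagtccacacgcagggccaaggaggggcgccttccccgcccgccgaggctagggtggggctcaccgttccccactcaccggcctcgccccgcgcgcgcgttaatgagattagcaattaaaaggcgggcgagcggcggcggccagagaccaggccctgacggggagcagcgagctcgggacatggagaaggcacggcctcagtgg
Slc6a14, chrX:21714650-21714949, plus strand: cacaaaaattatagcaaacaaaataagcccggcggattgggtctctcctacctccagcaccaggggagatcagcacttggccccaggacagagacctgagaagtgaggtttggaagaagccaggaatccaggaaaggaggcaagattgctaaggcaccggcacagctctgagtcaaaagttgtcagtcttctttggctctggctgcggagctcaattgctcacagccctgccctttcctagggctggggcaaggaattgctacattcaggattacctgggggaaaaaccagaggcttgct

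The Slc7a9 window shown held 2 GATA and 2 CDX matches, of which the GATA match that begins 205 bases before the start overlaps the CDX match that begins at 203 bases and not the one at 199. The table has a second Slc7a9 window, chr7:35448929-35449228 on the plus strand, from a start further downstream, and it held none of the 4 motifs. The Slc3a1 window held 4 CDX matches and 1 match each to GATA and HNF4, some of them overlapping. The Slc6a20a and Slc6a14 windows held none of the 4 motifs. Among all 32851 promoter windows of this length, 14.35% held the HNF4 letters, 40.01% the CDX letters, 11.18% the GATA letters and 8.30% the STAT letters. Of the 15 windows of the 10 genes, 3 held the HNF4 letters, 5 the CDX letters, 4 the GATA letters and none the STAT letters. Overlapping windows of Slc7a7 hold the same GATA and CDX letters. By gene, 3 had at least 1 window with the HNF4 letters, 4 with CDX, 3 with GATA and none with STAT. The gene counts are not on the scale of the shares of windows. A match is a description of these letters and not a binding site. Among the factors, Gata4 read 85.6 units on the DKO-labelled array, 19.9 on the Bmi1ΔIEC-labelled and on the Mel18ΔIEC-labelled and 21.0 on the WT array with its brighter probe set. Its other probe set stayed under the floor on every array, at 5.96 to 8.08 units. Gata6 read 305, 510, 494 and 337 units in the same order of arrays. Gata6, Cdx1 and Hnf4g did not pass the size rule against WT. The part of any factor in the transporter values was not tested. Hnf4a and Cdx2 did not pass the size rule against WT on any array, with log2 differences from -0.01 to 0.13 and from 0.02 to 0.31.

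Slc7a9, the light chain that exchanges cystine and basic amino acids for neutral ones across the brush border, had the widest range of the 10 genes. Its 1 probe set read 1206 units on the DKO-labelled array, 208 on the Bmi1ΔIEC-labelled array, 237 on the Mel18ΔIEC-labelled array and 99.3 on the WT array. All 3 knockout-labelled arrays were thus above WT, and the DKO-labelled array stood far above the other 3. The log2 difference from WT was 3.60 on the DKO-labelled array (12.1-fold), 1.07 on the Bmi1ΔIEC-labelled array and 1.25 on the Mel18ΔIEC-labelled array. The Bmi1ΔIEC value lay at the edge of the size rule and no longer passed it when each array was centred on its expressed genes, those reaching the floor (0.84), or when the arrays were quantile normalized (0.95). Among the 11853 genes tested between the DKO-labelled and WT arrays, the difference of Slc7a9 ranked 16 from the highest, and 12 with values under the floor set to the floor.

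Slc3a1, the heavy chain that pairs with Slc7a9 in the cystine transporter that is defective in human cystinuria, read 102 units on the DKO-labelled array, 60.4 on the Bmi1ΔIEC-labelled, 40.8 on the Mel18ΔIEC-labelled and 58.9 on the WT array. Its log2 differences from WT were 0.79, 0.04 and -0.53 in that order, and none passed the size rule. The subunits thus differed unequally: on the DKO-labelled array the light chain lay 3.60 above WT and the heavy chain 0.79 above WT on the log2 scale. Set against the Mel18ΔIEC-labelled array, the DKO-labelled array was higher by the size rule for both, by 2.35 for Slc7a9 and by 1.32 for Slc3a1.

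Slc6a20a, a sodium-dependent transporter of proline and other imino acids, was higher on all 3 knockout-labelled arrays too, but in another order. It read 99.3 units on the DKO-labelled array, 179 on the Bmi1ΔIEC-labelled array and 133 on the Mel18ΔIEC-labelled array, against 40.5 on the WT array, where it lay close to the floor. The log2 differences from WT were 1.29, 2.15 and 1.71. The single-knockout-labelled arrays were the brighter ones here, whereas for Slc7a9 the DKO-labelled array was. The adjacent paralog Slc6a20b, on chromosome 9 like Slc6a20a, stayed under the floor with 9.19, 11.0, 12.4 and 11.6 units on the DKO-labelled, Bmi1ΔIEC-labelled, Mel18ΔIEC-labelled and WT arrays.

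Slc6a14, a sodium- and chloride-driven transporter with an unusually broad range that takes up neutral and basic amino acids and is known to be raised in the inflamed human colon, was the 1 member lower than WT by the size rule. The brighter of its 2 probe sets read 387 units on the DKO-labelled array, 1599.8 on the Bmi1ΔIEC-labelled array, 1650.3 on the Mel18ΔIEC-labelled array and 1131 on the WT array. The other probe set read 192, 862, 819 and 471 units in the same order and gave the same order of the DKO-labelled array below WT below both others. For the brighter probe set the log2 difference from WT was -1.55 on the DKO-labelled array, 0.50 on the Bmi1ΔIEC-labelled array and 0.54 on the Mel18ΔIEC-labelled array, and for the other it was -1.29, 0.87 and 0.80. The log2 difference of the DKO-labelled array was -2.05 from the Bmi1ΔIEC-labelled and -2.09 from the Mel18ΔIEC-labelled array.

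Slc6a14 is X-linked, and transcripts that differ between the sexes were therefore read beside it. Xist, which coats the silenced X chromosome of female cells, read 611 units on the DKO-labelled, 45.5 on the Bmi1ΔIEC-labelled, 54.2 on the Mel18ΔIEC-labelled and 122 on the WT array, and the Y-linked Eif2s3y read 229, 282, 198 and 246 units. The array highest for Xist was the one lowest for Slc6a14. Colonocyte markers also moved on the DKO-labelled array, in both directions: Aqp8 and Slc26a3 had log2 differences from WT of -1.43 and -1.15, and Car1 and Guca2a of 1.45 and 2.41. The part of any of these in the Slc6a14 values was not tested.

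Slc15a1, the proton-coupled carrier of small peptides, read 181 units on the DKO-labelled array, 253 on the Bmi1ΔIEC-labelled array, 324 on the Mel18ΔIEC-labelled array and 333 on the WT array. Its log2 differences from WT were -0.88, -0.40 and -0.04, and none passed the size rule. The second peptide carrier, Slc15a2, which is not among the 10 genes, took the opposite course on the DKO-labelled array. It read 210.0, 180.0 and 160.0 units on the DKO-labelled, Bmi1ΔIEC-labelled and Mel18ΔIEC-labelled arrays, against 16.8 units on the WT array, which is under the floor, so set against the floor it was at least 6.30-fold, 5.40-fold and 4.80-fold higher. Its 2 dimmer probe sets stayed under the floor on every array.

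Slc1a1, the carrier of glutamate and aspartate, had 3 probe sets. The brightest read 357 units on the DKO-labelled, 509 on the Bmi1ΔIEC-labelled, 365 on the Mel18ΔIEC-labelled and 285 on the WT array, and the second read 270, 428, 243 and 213 units, with the Bmi1ΔIEC-labelled array highest in both. The third lay at the floor, between 33.4 and 40.6 units, with no such peak. The brightest gave a log2 difference from WT of 0.84 on the Bmi1ΔIEC-labelled array, short of the size rule, while the second gave 1.01. Slc6a19, the main sodium-driven carrier of neutral amino acids in the small intestine, had 2 probe sets between 4.81 and 21.4 units, all under the floor, so no difference is read for it. Its trafficking partner Cltrn also stayed under the floor, at 4.31 to 7.62 units.

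**Figure D1:**
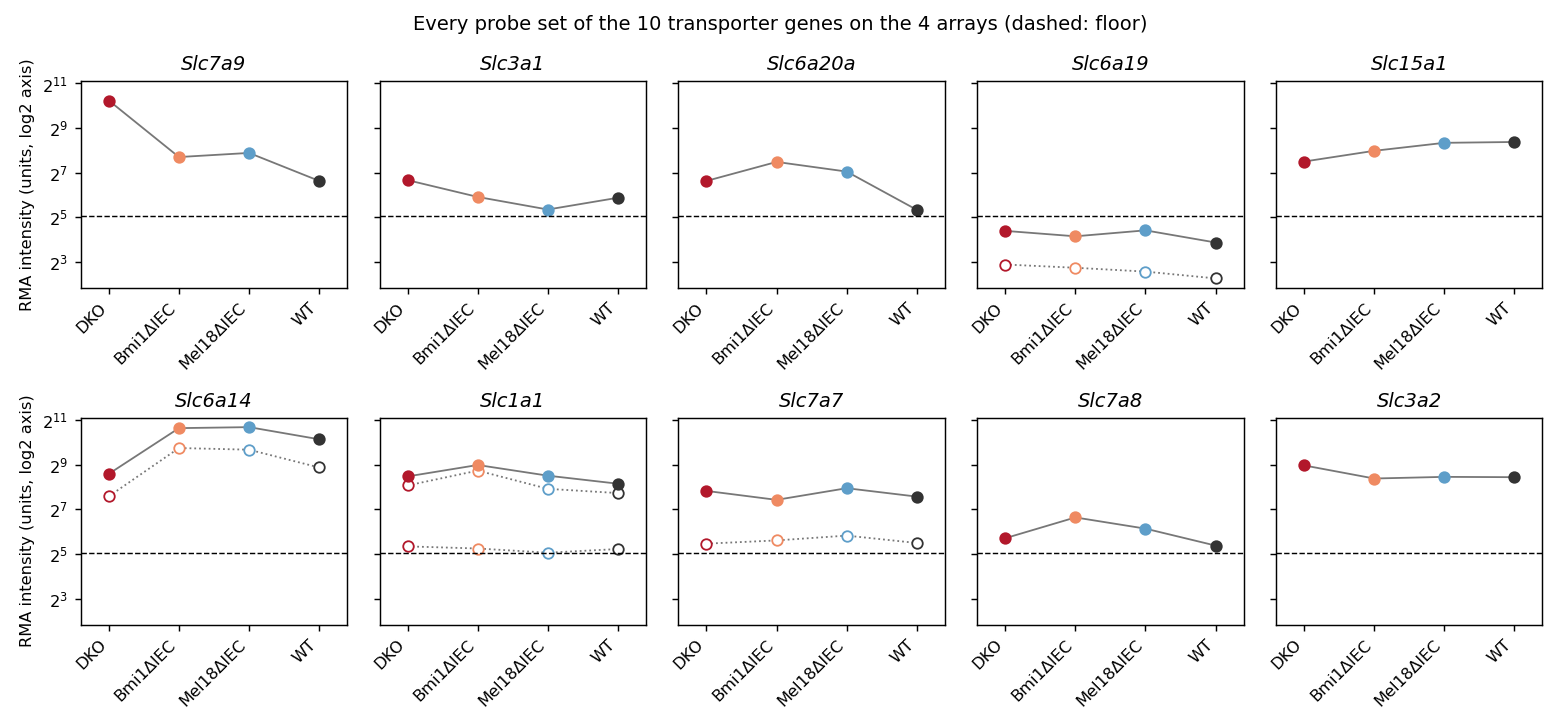
RMA intensity (arbitrary units, log2 axis) of every probe set of the 10 genes on the DKO-labelled, Bmi1ΔIEC-labelled, Mel18ΔIEC-labelled and WT arrays, 1 array each. Filled points are the brightest probe set of a gene, open points its other probe sets, and the dashed line is the floor of 33.4 units. Slc7a9 is highest on the DKO-labelled array, Slc6a14 is lowest there in both probe sets, and Slc6a19 lies under the floor throughout.

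Of the basolateral genes, Slc7a7 and Slc3a2 had the narrowest ranges among the 9 members that reached the floor. Slc7a8 ranged wider than the luminal Slc15a1 and Slc1a1. Slc7a8, a light chain that exchanges neutral amino acids, read 52.4 units on the DKO-labelled, 99.9 on the Bmi1ΔIEC-labelled, 70.5 on the Mel18ΔIEC-labelled and 41.6 on the WT array. It was higher than WT by the size rule on the Bmi1ΔIEC-labelled array, at 1.26 on the log2 scale, and lay at 0.76 on the Mel18ΔIEC-labelled and 0.33 on the DKO-labelled array. Slc7a7, the light chain that exports basic amino acids, read 227, 172, 248 and 191 units on the same arrays with its brighter probe set, and between 44.2 and 56.8 units with the other. Slc3a2, the heavy chain that both pair with, read 503 units on the DKO-labelled, 335 on the Bmi1ΔIEC-labelled, 352 on the Mel18ΔIEC-labelled and 349 on the WT array, a log2 difference from WT of 0.53 at most. Slc7a7 and Slc3a2 did not pass the size rule in any of the 5 comparisons. Both are also expressed in leukocytes, whose markers differed between these arrays as given above. The part of such cells in their values was not tested.

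Against WT, the DKO-labelled array had 2 of the 9 members tested higher (Slc7a9 and Slc6a20a) and 1 lower (Slc6a14). Among all 11853 genes tested, 2.13% were higher and 2.19% lower. On the Bmi1ΔIEC-labelled array 3 members were higher (Slc6a20a, Slc7a8 and Slc7a9) and none was lower, against 5.76% and 2.86% of 11934 genes. On the Mel18ΔIEC-labelled array 2 were higher (Slc6a20a and Slc7a9) and none was lower, against 3.15% and 2.5% of 11862 genes. Over the 9 members the median difference on the log2 scale was 0.33, 0.50 and 0.38 on the 3 arrays, and over all genes tested it was -0.01, 0.13 and 0.07. The comparisons share the WT array, so the 3 differences of a gene are not independent. The shares are small numbers of genes picked by name, and nothing particular to the family is read from them.

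**Figure D2:**
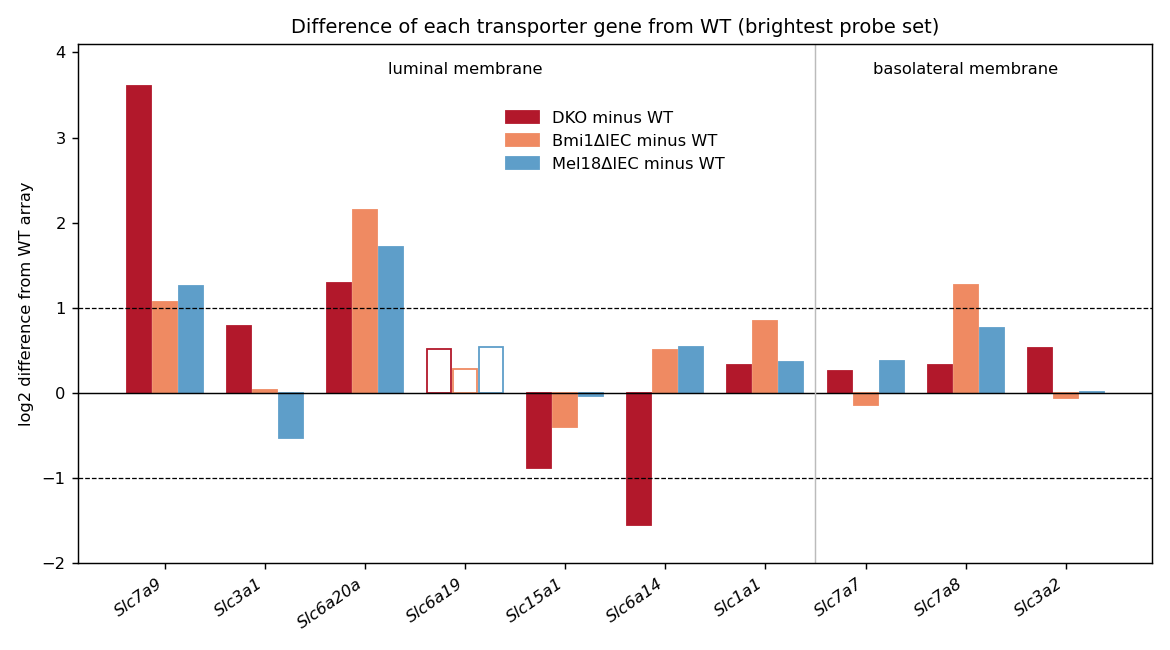
Log2 difference of each gene's brightest probe set from the WT array, for the DKO-labelled, Bmi1ΔIEC-labelled and Mel18ΔIEC-labelled arrays, with dashed lines at the size rule of 1 and -1. Open bars (Slc6a19) did not reach the floor. Slc7a9 reaches 3.60 on the DKO-labelled array and Slc6a14 -1.55, while the basolateral genes pass the line once, with Slc7a8 at 1.26.

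The place of these genes among all solute carriers was looked up after their values were seen. Between the DKO-labelled and WT arrays 228 solute carrier genes by symbol were tested, the 9 members included, and with values under the floor set to the floor Slc7a9 ranked 1 from the highest, while Slc6a14 ranked 3 and Slc15a1 10 from the lowest. With the values as deposited Slc7a9 ranked 2, after Slc15a2, whose WT value lay under the floor, so those genes have no settled order. On the Bmi1ΔIEC-labelled array Slc6a20a ranked 2 of 228 on either scale, and on the Mel18ΔIEC-labelled array it ranked 3 of 232 with the floor set and 4 as deposited. The 219 solute carriers outside the family had 8 genes higher and 7 lower on the DKO-labelled array, against 2.13% and 2.19% of all genes. Their median log2 difference was 0.03.

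**Figure D3:**
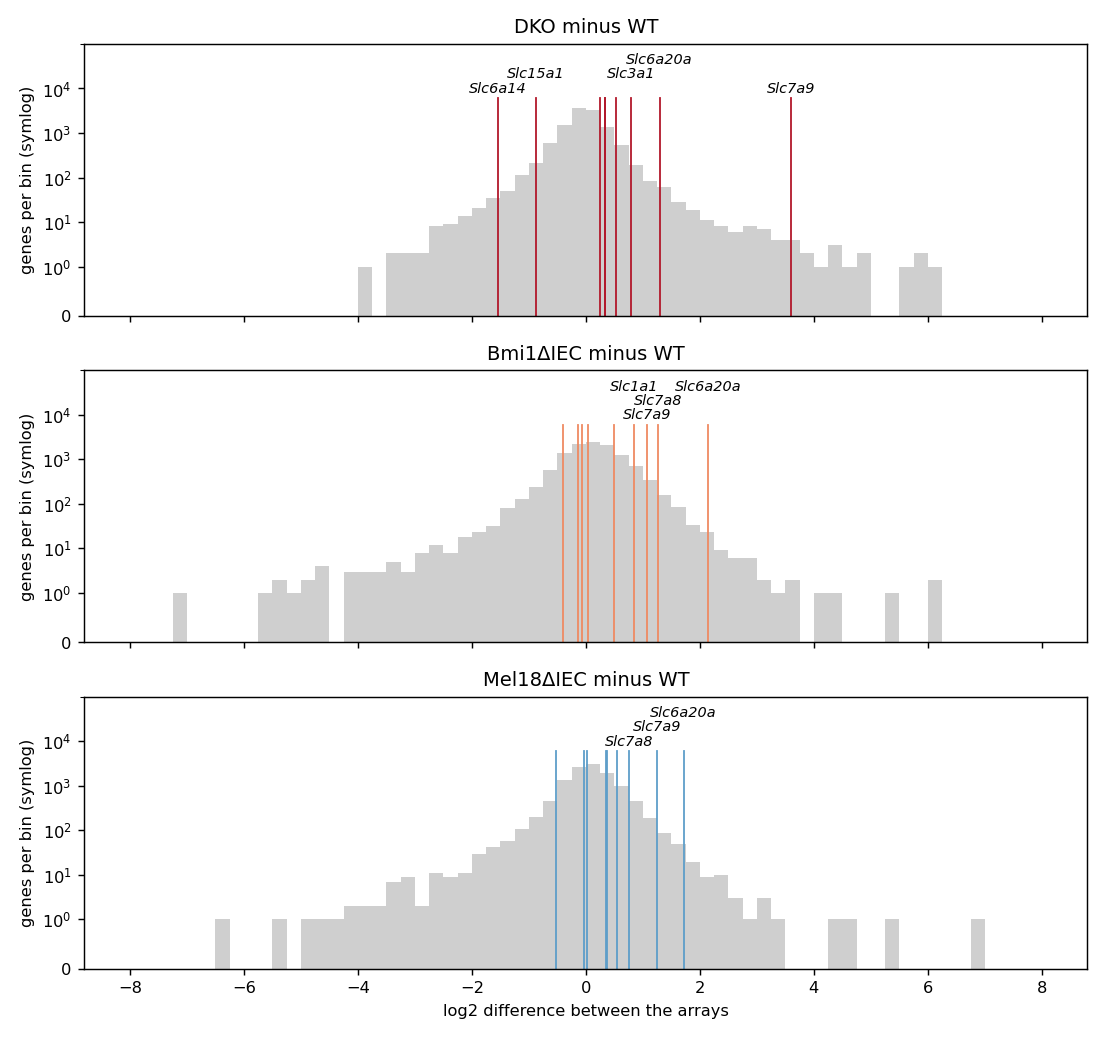
Number of genes per bin of 0.25 log2 units (symlog axis) by their difference from WT, for all genes tested on the DKO-labelled, Bmi1ΔIEC-labelled and Mel18ΔIEC-labelled arrays (top to bottom). Coloured lines mark the 9 members tested, named where the difference is at least 0.75 in size. On the DKO-labelled array Slc7a9 at 3.60 and Slc6a20a at 1.29 lie in the upper tail of all genes, and Slc6a14 at -1.55 in the lower. Slc6a20a also lies in the upper tail on the Bmi1ΔIEC-labelled array at 2.15 and on the Mel18ΔIEC-labelled array at 1.71.

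The loss of each gene can also be read on the other knockout's background, and such a pair of differences shares no array. For Bmi1, the labelled loss is the Bmi1ΔIEC-labelled array minus WT and the DKO-labelled array minus the Mel18ΔIEC-labelled array. For Slc7a9 these were 1.07 and 2.35, and the corresponding pair for Mel18 was 1.25 and 2.53. All 4 were positive, and the difference was larger with the other gene's loss also labelled. The Bmi1 and Mel18 pairs of a gene are built from the same 4 values. The gap within the pair is therefore the same for both, and the Mel18 pair is not a second reading of it. For Slc6a14 the signs were opposite, 0.50 and -2.09 for Bmi1 and 0.54 and -2.05 for Mel18. Slc6a20a gave 2.15 and -0.42 for Bmi1 and 1.71 and -0.85 for Mel18, so its difference on the WT background was not seen on the other.

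In direct comparison, the DKO-labelled array had 1 member higher than the Bmi1ΔIEC-labelled array (Slc7a9) and 1 lower (Slc6a14), against 4.3% and 7.96% of 11966 genes. It had 2 members higher than the Mel18ΔIEC-labelled array (Slc7a9 and Slc3a1) and 1 lower (Slc6a14), against 3.84% and 4.53% of 11879 genes. The non-additive term, the DKO-labelled value minus both single-knockout-labelled values plus the WT value on the log2 scale, was at least 1 in size for 5 members. It was 1.28 for Slc7a9 and 1.28 for Slc3a1, and it was -2.57 for Slc6a20a, -2.59 for Slc6a14 and -1.69 for Slc7a8. Of 12154 genes at or above the floor, 8.7% had a term of 1 or more and 18.6% a term of -1 or less, so terms past that limit were common. These shares do not say how common terms as large as those of Slc6a20a, Slc6a14 and Slc7a8 were.

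**Figure D4:**
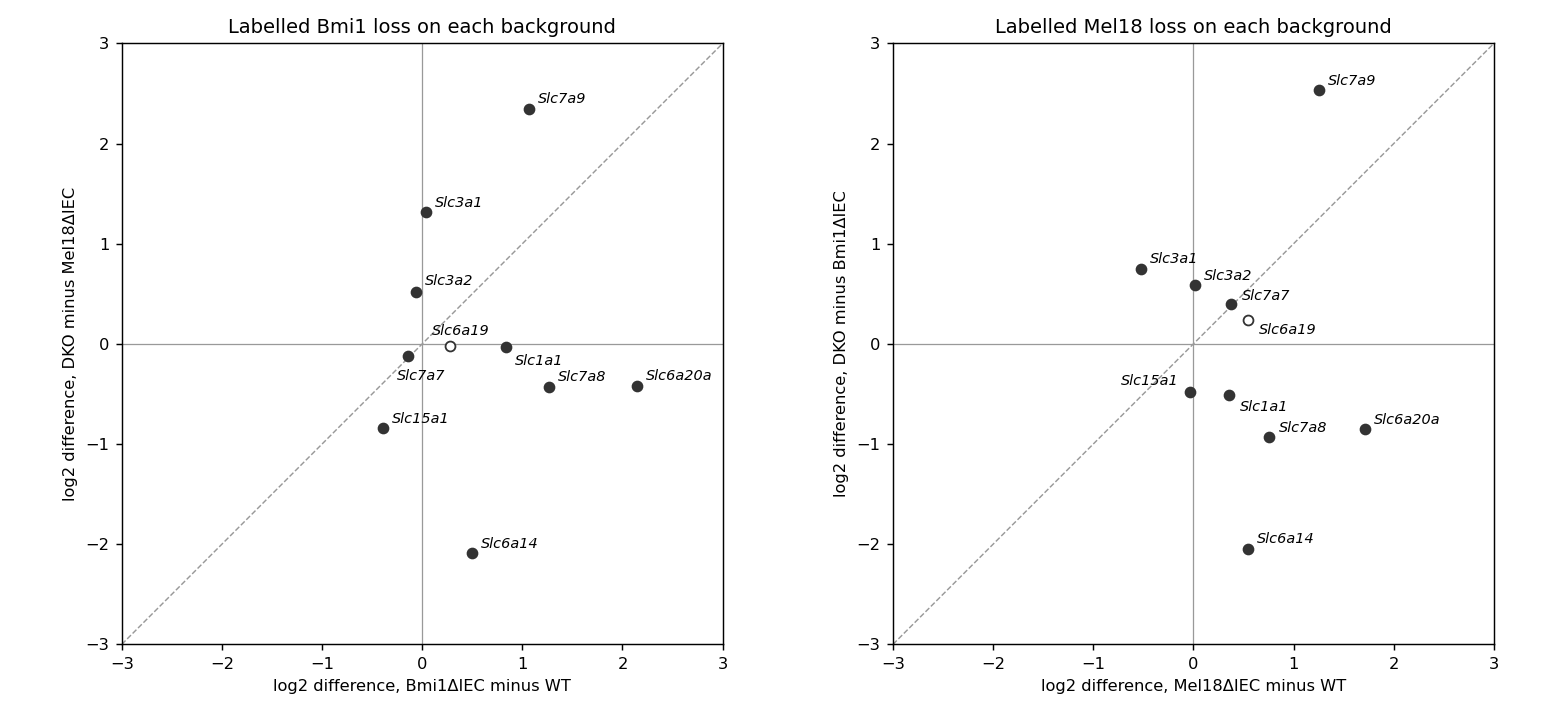
Log2 difference for the labelled loss of Bmi1 (left) and Mel18 (right), on the other knockout's background (vertical) against the WT background (horizontal), 1 point per gene, with the dashed line at equality. Slc7a9 lies above the line in both panels, and Slc6a14 and Slc6a20a lie right of 0 and below 0 in both. The open point is Slc6a19, under the floor.

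Peptidases of the brush border release the amino acids and small peptides that these transporters take up. Of the 7 tested between the DKO-labelled and WT arrays, 4 were higher and none was lower, against 2.13% and 2.19% of all genes. Their median log2 difference was 1.37, against -0.01 for all genes. The other peptidases tested, Dpp4, Ace and Xpnpep2, lay at 0.12, -0.25 and -0.11. Anpep, Mme and Tmprss15 stayed under the floor on every array. Enpep, an aminopeptidase that removes acidic residues, read 1995 units on the DKO-labelled, 264 on the Bmi1ΔIEC-labelled and 81.2 on the Mel18ΔIEC-labelled array, against 29.9 on the WT array, which is under the floor. Set against the floor it was at least 59.8-fold higher on the DKO-labelled array. Naaladl1, another brush border peptidase, read 1774, 126, 214 and 62.2 units in the same order, and both meprin subunits were higher on the DKO-labelled array as well, Mep1a by 1.67 and Mep1b by 1.37 on the log2 scale. Like Slc7a9, Enpep and Naaladl1 were highest on the DKO-labelled array and higher than WT on all 3, whereas the peptide carrier Slc15a1 lay below WT on the DKO-labelled array.

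The other amino acid and peptide transporters were mostly near WT. Of the 17 that were tested out of 26, the DKO-labelled array had 2 higher (Slc15a2 and Slc6a9) and 1 lower (Slc1a5). The Bmi1ΔIEC-labelled and Mel18ΔIEC-labelled arrays each had 1 higher (Slc15a2) and none lower. Over all genes tested, 2.13%, 5.76% and 3.15% were higher on these arrays in turn, and 2.19%, 2.86% and 2.5% lower. Slc6a9, a glycine transporter, read 720.2 units on the DKO-labelled, 193 on the Bmi1ΔIEC-labelled, 248 on the Mel18ΔIEC-labelled and 269 on the WT array. The dimmer Slc6a9 probe set gave a log2 difference of 0.53 between the DKO-labelled and WT arrays, short of the size rule. Slc1a5, a glutamine transporter, read 200.5, 413, 513 and 427 units in that order with its brighter probe set. That probe set was lowest on the array where Slc6a14 was lowest. Its other probe set read 68.5, 57.2, 91.1 and 83.3 units. There the Bmi1ΔIEC-labelled array was lowest, and the DKO-labelled array differed from WT by -0.28 on the log2 scale. The light chains that share the heavy chain Slc3a2 lay close to WT or under the floor: Slc7a5 differed by -0.47 to 0.13 and Slc7a6 by -0.17 to 0.06 on the log2 scale, and Slc7a11 stayed under the floor.

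Slc9a3, the sodium-proton exchanger whose acid microclimate drives peptide uptake, read 1059 units on the DKO-labelled, 252 on the Bmi1ΔIEC-labelled, 1024 on the Mel18ΔIEC-labelled and 819 on the WT array. It alone of the 3 partner genes tested passed the size rule against WT, being lower on the Bmi1ΔIEC-labelled array (-1.70). On the DKO-labelled and Mel18ΔIEC-labelled arrays it lay at 0.37 and 0.32. Its dimmer probe set read 21.1 units on the Bmi1ΔIEC-labelled and 23.6 on the WT array, both under the floor. Both sugar transporters tested, Slc5a1 and Slc2a5, stayed within the rule. Of the 12 genes of the amino acid starvation response, none passed against WT on the DKO-labelled array with its brightest probe set. Read likewise, 1 was lower on the Bmi1ΔIEC-labelled array and 2 on the Mel18ΔIEC-labelled array. Phgdh, among the 12, had a log2 difference from WT of -0.22 on the DKO-labelled array with its brightest probe set. Its dimmer probe sets, all over the floor, gave -1.41, -1.36 and -0.52 there. Chac1, which degrades glutathione, read 210.2 units on the DKO-labelled, 26.3 on the Bmi1ΔIEC-labelled, 29.6 on the Mel18ΔIEC-labelled and 113 on the WT array, and Psat1 of serine synthesis read 43.0 units on the Mel18ΔIEC-labelled and 104 on the WT array.

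**Figure D5:**
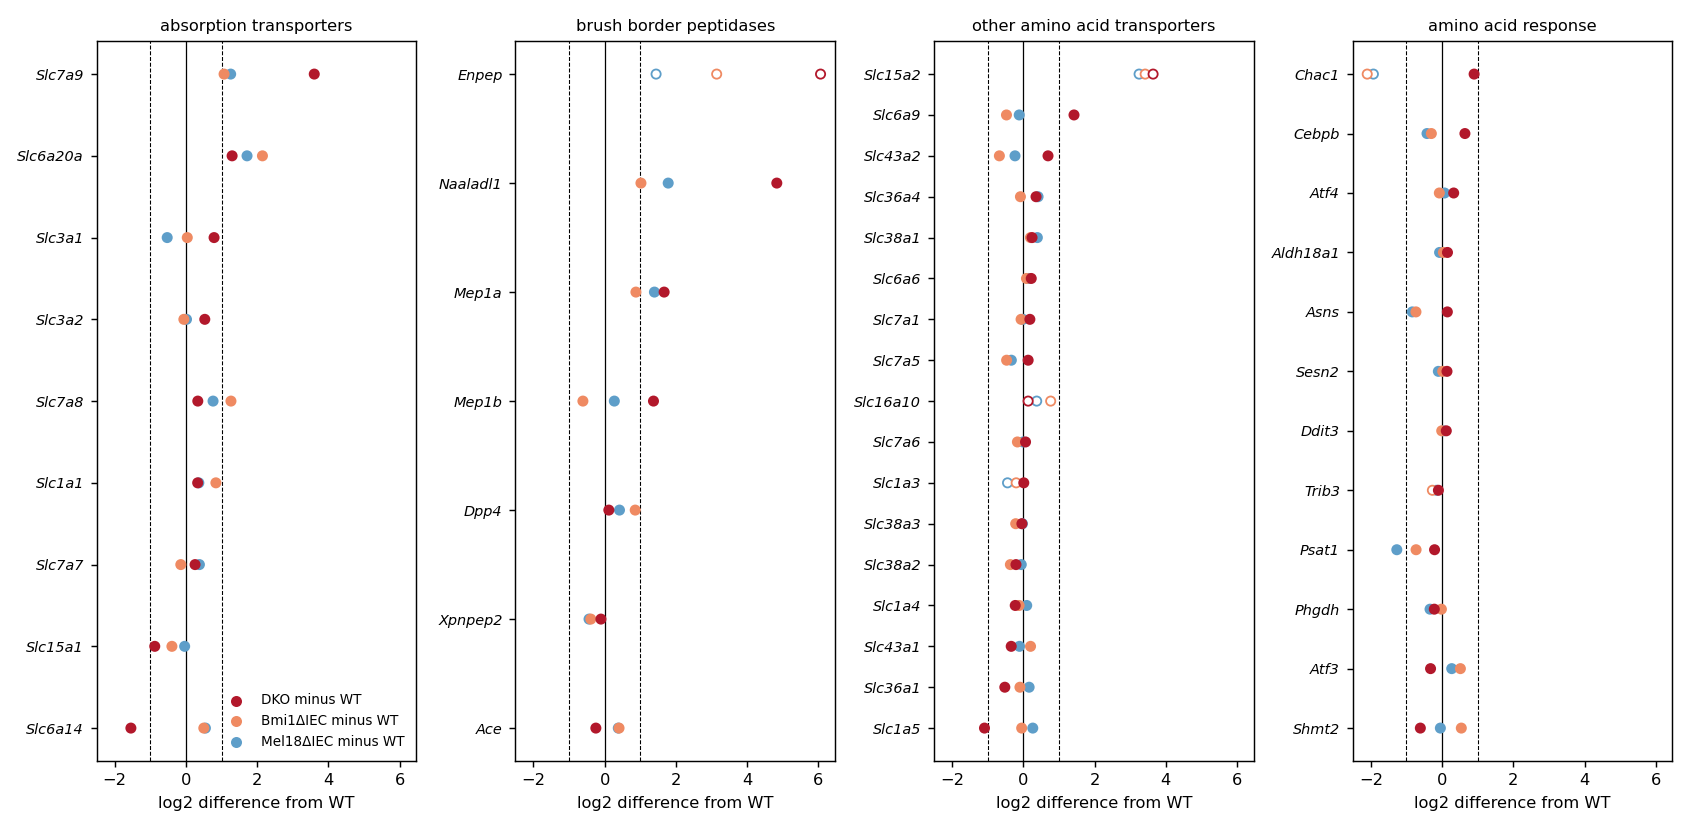
Log2 difference from WT on the DKO-labelled, Bmi1ΔIEC-labelled and Mel18ΔIEC-labelled arrays for the 9 absorption transporters, the brush border peptidases, the other amino acid transporters and the amino acid response genes that reached the floor, sorted by the DKO-labelled array, with dashed lines at 1 and -1. Open points have 1 of their values under the floor and no settled size. On the DKO-labelled array Naaladl1 at 4.83 and Slc7a9 at 3.60 stand to the right, and Enpep and Slc15a2, open because WT lay under the floor, are at least 5.90 and 2.65 when set against the floor.

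The genes with the pattern most like that of Slc7a9 were sought among the 12145 other genes at or above the floor, by Euclidean distance of the log2 values centred over the 4 arrays. The closest were Lgals2, Pkhd1, Pnliprp2, Ms4a10 and Pla2g12b, at distances of 0.30 to 0.45. Lgals2, a galectin, read 1109 units on the DKO-labelled, 181 on the Bmi1ΔIEC-labelled, 174 on the Mel18ΔIEC-labelled and 96.5 on the WT array, with log2 differences from WT of 3.52, 0.91 and 0.85. With 4 arrays such a likeness is a description only. The genes next to Slc7a9 on chromosome 7 did not follow it. Of the 3 protein-coding genes on each side, 4 reached the floor (Rhpn2, Faap24, Cep89 and Nudt19), and their log2 differences from WT on the DKO-labelled array lay between -0.62 and 0.02.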

How the data were processed

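Expression was measured on 1 Affymetrix array for each of 4 genotypes. The authors deposited intensity values per probe set. The submitters' processing notes name RMA and Affymetrix Expression Console without versions, and joint summarisation of the 4 arrays is not stated. Values run from 3.25 to 22803 on a linear scale, with array medians of 34.1 (DKO-labelled), 32.1 (Bmi1ΔIEC-labelled), 32.9 (Mel18ΔIEC-labelled) and 34.2 (WT). The log2 of each was taken without a pseudocount, with no further scaling.

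Of 45037 probe sets, the platform annotation gives 34945 a single symbol and 932 several, and 9160 are unnamed here. The gene identifier of 34741 matched the GRCm38.p6 gene table, which gave current symbols and neighbours. All 15 probe sets of the members had 1 symbol. The probe set with the highest mean log2 value stands for its gene, giving 18193 genes. The size rule and the floor replace a test, and their code was tested on simulated data. Python 3.11.15, numpy 2.4.6 and pandas 2.3.3 were used.

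The members and lists were chosen with earlier results of these data known. Every member is named, with up to 4 genes per list past the size rule against WT, known partners of a member, and the 5 genes closest to the widest-ranging member. Some genes of the lists are not reported here. Alternatives were the mean over probe sets, no floor, a floor at percentile 75, centring on array medians or on expressed genes (those reaching the floor), quantile normalization, a 1.5-fold rule, and leaving out probe-set types that may read several genes.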

Additional observations from a re-analysis of the deposited data

Results flagged for a closer look

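For 2 members the difference for the labelled loss of Mel18 ran in opposite directions on the WT and Bmi1ΔIEC backgrounds by at least 1.5-fold each. Slc6a20a lay at 1.71 on the Mel18ΔIEC-labelled array minus WT and at -0.85 on the DKO-labelled minus the Bmi1ΔIEC-labelled array. Slc7a8 lay at 0.76 and -0.93 in these comparisons. For the labelled loss of Bmi1, Slc6a20a lay at 2.15 and -0.42 and Slc7a8 at 1.26 and -0.43. They too ran in opposite directions, short of 1.5-fold on the Mel18ΔIEC background. The gap within a pair is the same for both losses, so the reversal is not particular to Mel18. Slc6a14, at 0.54 and -2.05 for Mel18, fell short of 1.5-fold on the WT background. With 1 array per genotype the difference between the backgrounds was not tested. Of the 12154 genes at or above the floor, 10.4% ran in opposite directions by at least 1.5-fold each for Mel18 and 11.5% for Bmi1.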

How the results depend on the processing

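The 10 counts of members higher or lower were recomputed under 8 alternatives, and 72 of 80 recomputed counts stayed within 1.5 times the reported one. With the floor at percentile 75, 1 member in place of 2 was higher on the DKO-labelled array than on WT, on the Mel18ΔIEC-labelled array than on WT, and on the DKO-labelled than on the Mel18ΔIEC-labelled array, because Slc6a20a and Slc3a1 lay under that floor of 136 units in those comparisons. Under the 1.5-fold rule 2 members in place of 1 were lower on the DKO-labelled array than on WT and than on the Mel18ΔIEC-labelled array, and 3 in place of 1 were higher and 3 in place of 1 lower than on the Bmi1ΔIEC-labelled array. With arrays centred on their medians, 2 in place of 1 were lower on the DKO-labelled than on the Bmi1ΔIEC-labelled array, Slc7a8 passing at -1.02. Of 400 recomputed differences of single members, 384 kept their side of the size rule, 10 newly passed it and 6 no longer passed it, and none that passed changed sign. The 6 were Slc7a9 on the Bmi1ΔIEC-labelled array when centred on the expressed genes (0.84) or quantile normalized (0.95) and 4 differences of Slc6a20a, Slc7a8 and Slc3a1 under the higher floor. Centring moved the balance of all genes: on the Bmi1ΔIEC-labelled array 687 were higher and 341 lower than WT as deposited, 890 and 279 with arrays centred on their medians, 579 and 376 quantile normalized, and 347 and 562 centred on the expressed genes, where the median gene lay at -0.12 in place of 0.13. No paired analysis was possible because each genotype has 1 array and the labels give no replicate numbers. Having 1 array per genotype limits the precision of all values.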
